A study of Arabidopsis thaliana with 6 samples.

Results

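A group of 6 plant cell wall genes was followed in seedlings given the explosive TNT. They are the expansin genes EXPA7 and EXPA18, the hydroxyproline-rich glycoprotein gene HRGP1, the endoglucanase genes GH9C1 and GH9C2, and the xyloglucan enzyme gene XTH16. Each is the only gene that the platform annotation gives for 1 probe set, so they are 6 of 13355 genes with a probe set of their own. The genes were picked because earlier results on these arrays showed low signals with TNT. Their difference between TNT and DMF is therefore described, and limma calls given for them are no test of it.

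The study measured whole plants of Arabidopsis thaliana, strain Col-0 (stock code N1093, developmental stage given as 1.05 weeks), on Affymetrix ATH1 arrays, 1 array per sample. In 3 samples, the TNT-treated-seedlings, each flask of 100 ml liquid medium with 10 seedlings received 60 µM TNT (2,4,6-trinitrotoluene) dissolved in 60 µl dimethyl formamide (DMF). In 3 samples, the DMF-treated-control-seedlings, the flask received 60 µl DMF alone. All flasks had been shaken for 13 days under a 16 h photoperiod and held medium with sucrose and vitamins, and RNA was taken 6 h after dosing. The stage label of 1.05 weeks is shorter than these 13 days, so it is not read as an age here. Seedlings of a flask were pooled, and no label says whether the replicates of a group were separate flasks, so the spread behind each p-value may be technical. Signals are linear MAS5 values, in which mismatch signal is subtracted and each array is scaled to a common level.

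A growing plant cell is held in by a wall of cellulose fibres tied together by xyloglucan and embedded in pectin and structural glycoproteins. Expansins loosen the contacts between these polymers without cutting them, xyloglucan endotransglucosylases cut and rejoin xyloglucan chains, endoglucanases cut glucan chains, and extensin-type glycoproteins cross-link into a scaffold. Root hairs, tubular outgrowths of single epidermal cells of the root, lengthen only at the tip and use their own set of these proteins. EXPA7 and EXPA18 are the expansins best known from root hairs, and GH9C1 is known from root hairs as well. GH9C2 and XTH16 are not known as root hair genes, so the set joins root hair genes with wall genes of wider use.

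The array labelled TNT replicate 2 stood apart within its group. Over 13648 tested probe sets, the log2 signals of TNT replicate 2 correlated at 0.934, 0.975 and 0.948 with DMF replicates 1, 2 and 3. Its correlations with TNT replicates 1 and 3 were lower, at 0.888 and 0.906 (a description across probe sets, which are not independent). Both arrays numbered 2 also had a narrower spread of log2 signal over these probe sets, with SDs of 1.34 for TNT and 1.33 for DMF, against 1.44 to 1.51 on the other 4 arrays. Results are therefore given over all 6 arrays and without TNT replicate 2. All 6 genes passed the filter on low signal, and on every array each was at least 2.03 times the highest bacterial control signal, which served as a floor and lay between 6.34 and 14.3.

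HRGP1 (AT3G54590) encodes a hydroxyproline-rich glycoprotein of the extensin type. Its signals were 97.6, 129.5 and 93.7 in TNT replicates 1, 2 and 3, against 283.0, 405.5 and 234.5 in DMF replicates 1, 2 and 3. Every TNT array lay under every DMF array. The means were 106.9 ± 19.6 with TNT and 307.7 ± 88.1 with DMF (SD, n = 3 each), and the log2 difference, TNT minus DMF, was -1.50 ± 0.24 (SE), which is 2.83-fold lower with TNT. The name of this probe set ends in _x_at, the maker's mark for probe sets in which some probes also match other transcripts, so part of the signal may come from related genes.

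GH9C1 (AT1G48930) encodes a secreted endoglucanase. It had signals of 29.3, 55.6 and 24.5 in TNT replicates 1, 2 and 3, against 69.9, 103.6 and 62.9 in DMF replicates 1, 2 and 3. The groups did not overlap, but TNT replicate 2 came close to the lowest DMF array. The log2 difference was -1.17 ± 0.34 (SE), or 2.25-fold lower with TNT.

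EXPA18 (AT1G62980) had signals of 23.5, 47.4 and 28.9 in TNT replicates 1, 2 and 3, against 65.7, 72.2 and 61.5 in DMF replicates 1, 2 and 3. The DMF arrays were close together, with the highest 1.17 times the lowest, while the TNT arrays spread 2.02-fold. The groups did not overlap, and the log2 difference was -1.06 ± 0.28 (SE), or 2.09-fold lower with TNT.

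EXPA7 (AT1G12560), the other root hair expansin, had signals of 17.8, 44.0 and 25.0 in TNT replicates 1, 2 and 3, against 36.2, 63.3 and 52.1 in DMF replicates 1, 2 and 3. TNT replicate 2 lay above DMF replicate 1, so the groups overlapped, although TNT was the lower in each replicate number. The log2 difference was -0.87 ± 0.37 (SE), or 1.83-fold lower with TNT.

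GH9C2 (AT1G64390), an endoglucanase of the same subclass as GH9C1, had signals of 106.1, 188.9 and 107.9 in TNT replicates 1, 2 and 3, against 165.5, 183.3 and 178.9 in DMF replicates 1, 2 and 3. TNT replicate 2 was the highest of all 6 arrays. The 3 DMF arrays lay within 1.11-fold of each other. The log2 difference was -0.44 ± 0.24 (SE), or 1.36-fold lower with TNT.

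XTH16 (AT3G23730) encodes a xyloglucan endotransglucosylase/hydrolase. Its signals were 78.8, 229.3 and 74.7 in TNT replicates 1, 2 and 3, against 130.0, 147.0 and 143.7 in DMF replicates 1, 2 and 3. TNT replicates 1 and 3 were lower than every DMF array, and TNT replicate 2 was higher than every DMF array, so that TNT signals spread 3.07-fold and DMF signals 1.13-fold. The log2 difference was -0.34 ± 0.40 (SE), smaller than its error.

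**Figure D1:**
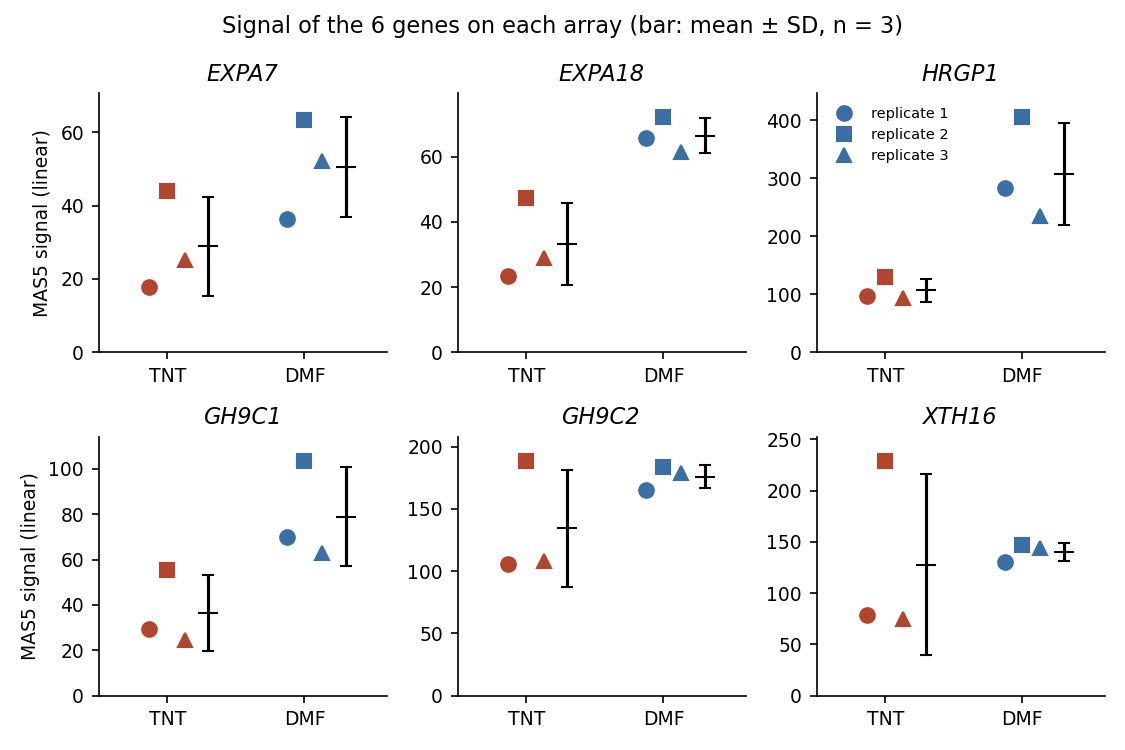
MAS5 signal (linear, vertical axes from 0) of the 6 genes on each array, with TNT on the left and DMF on the right of each panel; marker shapes give the replicate number and black bars the mean ± SD of 3 arrays. EXPA18, HRGP1 and GH9C1 show no overlap between groups, while TNT replicate 2 (square) is the highest of all arrays for GH9C2 (188.9) and XTH16 (229.3).

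Across the 6 genes the median log2 difference was -0.97 over all 6 arrays, against -0.02 over all tested probe sets. In 3 of the 6, HRGP1, GH9C1 and EXPA18, every TNT signal lay under every DMF signal, as it did for 6.07% of tested probe sets. The same 3 had log2 differences at or below -1, as did 0.711% of tested probe sets. With an offset of 16 added to each signal before the log2 step, only HRGP1 was at or below -1, at -1.37. None of the 6 passed in limma with Benjamini-Hochberg adjustment at a threshold of 0.05 over all 6 arrays. No probe set at all passed there (0% of 13648), while 1195 had an unadjusted p under 0.05. With array weights 6 of the 6 passed as lower with TNT over all 6 arrays, as did 11.4% of tested probe sets. These shares describe genes that were chosen on the same contrast, and nothing is read from them.

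Without TNT replicate 2 the log2 difference was larger in size for each gene. It was -1.65 ± 0.23 for HRGP1, -1.52 ± 0.26 for GH9C1, -1.35 ± 0.22 for EXPA18, -1.22 ± 0.32 for EXPA7, -0.87 ± 0.16 for XTH16 and -0.72 ± 0.15 for GH9C2 (SE, 2 TNT and 3 DMF arrays). HRGP1, GH9C1, EXPA18 and EXPA7 were at or below -1, as were 2.47% of tested probe sets. For all 6 genes both remaining TNT signals lay under every DMF signal, as they did for 21.6% of tested probe sets. In that comparison 5 of the 6 passed in limma as lower with TNT, all but EXPA7. Such calls, here and under the alternatives below, are no test of genes chosen on the same values. Over all tested probe sets 3.25% passed as lower and 3.69% as higher, 6.94% together; this is the comparison that chose the genes, and nothing is read from their share. EXPA7 passed too with the replicate number as a block, where 14.5% of tested probe sets passed as lower, which made 6 of 6. It also passed with quantile normalization (3.39% of tested probe sets lower) and with DMF replicate 1 left out as well (2.81%). The number was 2 of 6 with DMF replicate 3 left out as well, where 0.909% of tested probe sets passed as lower. It was 0 of 6 with TNT replicate 1 or TNT replicate 3 left out as well, where 0.418% and 0.454% passed as lower. The largest shift was that of XTH16, whose fold changed to 1.82-fold lower without TNT replicate 2, against 1.27-fold lower with it.

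Within replicate numbers the genes were not alike. EXPA7, EXPA18, HRGP1 and GH9C1 were lower with TNT in each of the 3 numbers, as were 20.7% of tested probe sets. Log2 differences in replicates 1, 2 and 3 were -1.54, -1.65 and -1.32 for HRGP1, and -1.25, -0.90 and -1.36 for GH9C1. They were -1.49, -0.61 and -1.09 for EXPA18 and -1.03, -0.53 and -1.06 for EXPA7. HRGP1 was thus as low against its partner in replicate 2 as in the others, whereas the difference of the other 3 was smallest there. GH9C2 and XTH16 were lower with TNT in replicates 1 and 3 only. Their log2 differences were -0.64, 0.04 and -0.73 for GH9C2 and -0.72, 0.64 and -0.94 for XTH16. The median over the 6 genes was -1.14, -0.57 and -1.07 in replicates 1, 2 and 3, against 0.01, -0.01 and -0.02 over all tested probe sets.

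**Figure D2:**
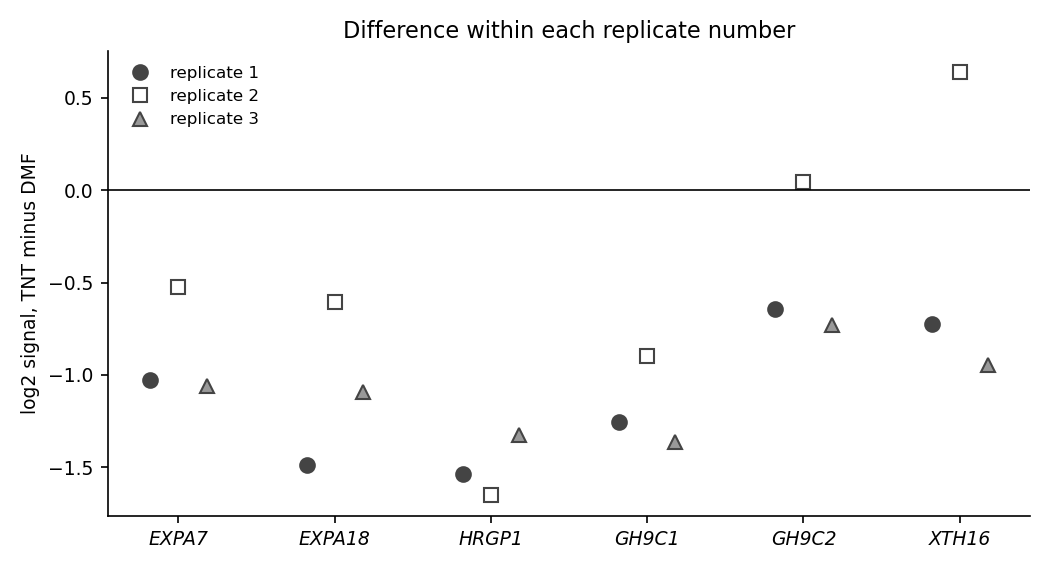
Log2 signal difference, TNT minus DMF, within each replicate number (marker shape) for each of the 6 genes, with the line at 0 for no difference. EXPA7, EXPA18, HRGP1 and GH9C1 lie below 0 in all 3 numbers, while replicate 2 (open square) lies at 0.04 for GH9C2 and at 0.64 for XTH16.

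Within each group the arrays can be set in order of signal. The array numbered 2 had the highest signal of its group for 6 of 6 genes with TNT and with DMF alike, as it had for 28.7% of tested probe sets. The genes were chosen for low signals in TNT replicates 1 and 3, which by itself favours a high TNT replicate 2, so this order is a description and nothing is read from it. Within TNT, replicate 2 exceeded the mean of replicates 1 and 3 by log2 values of 0.44 for HRGP1 up to 1.58 for XTH16, with a median of 0.96 over the genes and of 0.06 over all tested probe sets. Within DMF the excess was smaller, from 0.09 for GH9C2 to 0.65 for HRGP1, with medians of 0.36 and 0.07. EXPA7, HRGP1 and GH9C1 stood out in DMF replicate 2 by 0.54, 0.65 and 0.65, while EXPA18, GH9C2 and XTH16 differed by 0.18 or less. After quantile normalization, which gives every array the same spread, the same order was found for 5 of 6 genes and for 23.2% of tested probe sets. The part of the narrower spread of the arrays numbered 2 in this order was not tested beyond that.

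**Figure D3:**
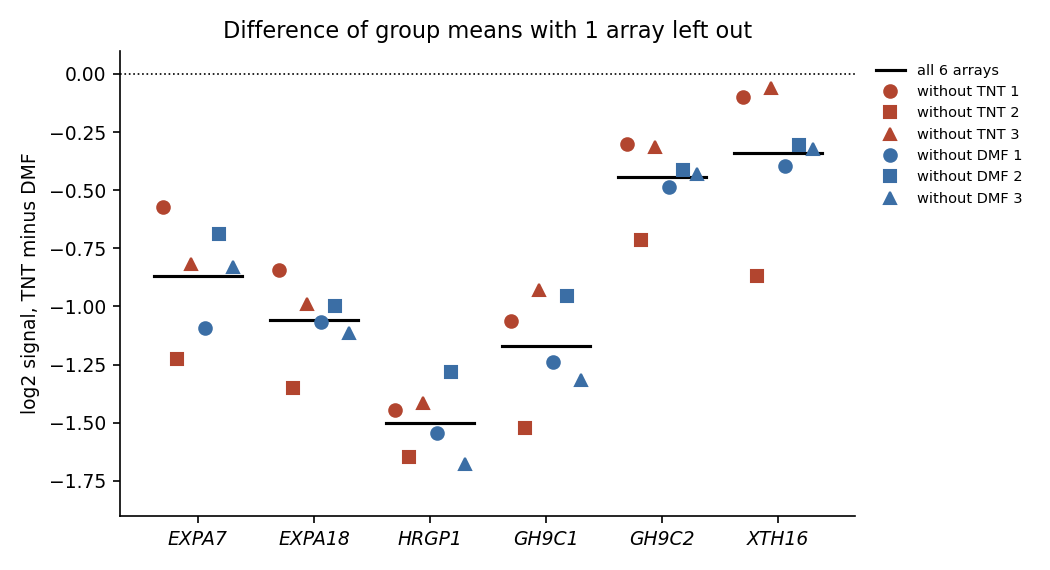
Log2 difference of group means, TNT minus DMF, for each gene over all 6 arrays (black line) and with 1 array left out (red markers for a TNT array, blue for a DMF array; shapes give the replicate number). All values are below 0; XTH16 runs from -0.87 without TNT replicate 2 to -0.06 without TNT replicate 3.

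Likeness of pattern was measured as the root mean square difference of log2 signal over the 6 arrays, each probe set centred on its own mean. Among the 6 genes, EXPA18 lay closest to GH9C1 (0.24) and EXPA7 (0.25), GH9C2 lay closest to XTH16 (0.26), and HRGP1 lay closest to GH9C1 (0.27). The widest gap was between HRGP1 and XTH16 (0.73). For scale, the median over all named tested probe sets was 0.81 from HRGP1, 0.73 from GH9C1 and 0.63 from EXPA18 and from EXPA7. It was 0.57 from XTH16 and 0.40 from GH9C2. HRGP1 thus lay farther from XTH16 than that gene's median. HRGP1 (0.59) and GH9C1 (0.43) lay farther from GH9C2 than its median. The genes were chosen on the same contrast, which by itself favours likeness among them, so nothing is read from these distances. The nearest other genes were AT1G23720 (0.16) and AT1G30870 (0.20) for HRGP1. For GH9C1 they were AT5G10130 (0.16) and AT1G15640 (0.20), for EXPA18 GSTU18 and AT4G16980 (0.16 and 0.17), and for EXPA7 AT1G52000 (0.05) and AT1G29530 (0.13). For GH9C2 they were CSLA03 (0.04) and AT3G11250 (0.06), and for XTH16 ACT11 (0.07) and AT5G56850 (0.13). With 6 arrays and 13648 probe sets, such small distances are a description only.

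Related genes were tested in the same fit, with their earlier values on these arrays likewise known. Over 23 other tested wall genes of the expansin, xyloglucan, endoglucanase, cellulose synthase and pectin lists, 0 passed over all 6 arrays. Without TNT replicate 2, 1 fell, 0 rose and 22 did not pass. With the replicate number as a block in that comparison, which leaves 1 residual degree of freedom, 9 of the 23 fell and 1 rose, where 14.5% of all tested probe sets passed as lower and 12.9% as higher. Without both arrays numbered 2, 2 of the 23 fell and 0 rose, where 4.97% passed as lower and 5.1% as higher. Log2 differences were negative for 19 of the 23 over all 6 arrays, with a median of -0.26, where 52.3% of all tested probe sets were negative. Without TNT replicate 2 they were negative for 21 of 23, with a median of -0.40, where 54.1% of all tested probe sets were negative.

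Of 4 other alpha-expansins, the family of EXPA7 and EXPA18, none passed without TNT replicate 2. EXPA15 had a log2 difference of -0.66 (limma adjusted p = 0.232) and EXPA8 one of -0.64 (limma adjusted p = 0.268). EXPA7 and EXPA18 were chosen on this comparison, so nothing is read from their larger differences. With the block, DMF replicate 2 has no partner, so differences there rest on replicate numbers 1 and 3. They were -0.51 for EXPA15 (limma adjusted p = 0.0436) and -0.91 for EXPA8 (limma adjusted p = 0.000737). With no block and both arrays numbered 2 left out, the differences were the same. Limma adjusted p was then 0.336 for EXPA15 and 0.0427 for EXPA8. EXPA4 had 64.2, 175.6 and 106.3 in TNT replicates 1, 2 and 3, against 69.3, 155.1 and 109.4 in DMF replicates 1, 2 and 3. Its signals followed the replicate number and not the treatment. None of the 3 expansins of other subfamilies passed either without TNT replicate 2, with EXPB3 at -1.16 (limma adjusted p = 0.185) and EXLA1 at -0.88 (limma adjusted p = 0.177). With the block EXPB3 was at -0.71 (limma adjusted p = 0.00739) and EXLA1 at -0.52 (limma adjusted p = 0.0143). Neither passed with no block and both arrays numbered 2 left out (limma adjusted p = 0.219 for EXPB3 and 0.138 for EXLA1). Over all 6 arrays the log2 differences were -0.59 for EXPB3 (limma adjusted p = 0.826) and -0.28 for EXLA1 (limma adjusted p = 0.925).

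Among 4 other tested xyloglucan endotransglucosylase genes none passed, and they lay on both sides of 0 without TNT replicate 2. XTH18 had a log2 difference of 1.12 (limma adjusted p = 0.195), opposite in sign to XTH16, and XTH19 one of -0.73 (limma adjusted p = 0.463). With the block, which rests on replicate numbers 1 and 3, XTH18 had 1.42 (limma adjusted p = 0.000512). With no block and both arrays numbered 2 left out, the same difference did not pass (limma adjusted p = 0.0935). XTH18 signals were 295.1, 110.3 and 103.7 in TNT replicates 1, 2 and 3, against 66.7, 121.9 and 63.7 in DMF replicates 1, 2 and 3, so that TNT replicate 1 alone was far above the rest. Of 4 other GH9 endoglucanases none passed, with GH9B8 at -0.58 (limma adjusted p = 0.249) and GH9B13 at -0.57 (limma adjusted p = 0.269). GH9C3, the remaining gene of the GH9C subclass, was under the filter on low signal. HRGP1 was the only wall glycoprotein that its list found by symbol, and genes known by locus code alone could not match it. PEX4 and PRP39 matched the list by symbol but are known for peroxisomes and RNA splicing, and 0 arabinogalactan genes were found.

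Of 6 tested genes in the cellulose synthase list, COB (AT5G60920), an anchored protein that orients cellulose deposition in elongating root cells, fell without TNT replicate 2. Its signals were 308.9, 498.9 and 350.6 in TNT replicates 1, 2 and 3, against 477.5, 499.9 and 602.9 in DMF replicates 1, 2 and 3. Both arrays numbered 2 were nearly equal. The fall of COB was by 0.67 on the log2 scale at the edge of the threshold (limma adjusted p = 0.0490, between 0.000441 and 0.351 over the alternatives). Over all 6 arrays the difference of COB was -0.47 and did not pass (limma adjusted p = 0.574). Without TNT replicate 2, CSLA03, a glucomannan synthase gene, had a difference of -0.71 (limma adjusted p = 0.0749), and CSLC04 one of -0.48 (limma adjusted p = 0.120). With the block, which rests on replicate numbers 1 and 3, CSLA03 had -0.65 (limma adjusted p = 0.0145) and CSLC04 -0.49 (limma adjusted p = 0.0132). With no block and both arrays numbered 2 left out, neither gene passed (limma adjusted p = 0.0793 for CSLA03 and 0.114 for CSLC04). Neither of 2 pectin genes passed, GAUT15 at -0.25 and ATPMEPCRB at -0.16.

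The root hair label was checked with a list of 34 root hair genes. The annotation named 6 of them alone for a probe set, and 5 were tested. Other genes of the list may be among the 8730 probe sets that the annotation leaves unnamed. EXPA7, EXPA18 and GH9C1 are 3 of these. Without TNT replicate 2, AT4G26010 fell by 1.56 on the log2 scale (limma adjusted p = 0.00236, between 1.62e-06 and 0.0341 over the alternatives). Its signals were 99.2, 106.4 and 78.4 in TNT replicates 1, 2 and 3, against 254.1, 240.0 and 289.2 in DMF replicates 1, 2 and 3. Groups of AT4G26010 did not overlap, and TNT replicate 2 was under every DMF array. Over all 6 arrays AT4G26010 had a difference of -1.47 ± 0.17 (SE) and did not pass (limma adjusted p = 0.138, or 0.107 with the replicate block). SCN1, a regulator of where root hairs form, did not pass, at -0.24 (limma adjusted p = 0.480).

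XTH26, a xyloglucan endotransglucosylase gene known from root hairs, lay under the filter on low signal and is named after its values were seen. Its signals were 0.46, 2.50 and 0.83 in TNT replicates 1, 2 and 3, against 16.5, 9.58 and 17.8 in DMF replicates 1, 2 and 3. The 3 TNT values, and 9.58 in DMF replicate 2, were below the bacterial control floor of their arrays, so XTH26 was above the floor on 2 of 3 DMF arrays and on 0 of 3 TNT arrays, and no fold is given. In limma with no filter the adjusted p was 0.0102 without TNT replicate 2 and 0.553 over all 6 arrays; both rest on deposited values under the floor.

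Whole seedlings mix tissues, and fewer root hair cells cannot be told apart from less RNA per cell. The 3 root hair list genes other than the 6 had a summed signal of 249.5 to 350.3 with TNT and of 456.2 to 488.3 with DMF. The gap came mainly from AT4G26010, at 78.4 to 106.4 with TNT and 240.0 to 289.2 with DMF. SCN1 overlapped, at 149.9 to 241.4 with TNT and 181.3 to 226.0 with DMF, and XTH26 added little. Of 11 markers of other root tissues, the annotation named only PYK10, a glucosidase abundant in roots, alone for a probe set. It left 8730 probe sets unnamed, so the other markers may be on the array without a name here. PYK10 signals were 2598 to 3214 with TNT and 2690 to 3339 with DMF, a log2 difference of 0.01 without TNT replicate 2 that did not pass (limma adjusted p = 0.972). Of 13 shoot markers, RCA and STOMAGEN were named in this way, with summed signals of 2213 to 2867 with TNT and 2961 to 3315 with DMF. RCA, the Rubisco activase gene, did not pass at -0.30 (limma adjusted p = 0.357). STOMAGEN, which encodes a signalling peptide of leaf tissue, fell without TNT replicate 2 by 1.26 on the log2 scale (limma adjusted p = 0.0155). Over the alternatives that keep TNT replicates 1 and 3, its limma adjusted p lay between 9.21e-05 and 0.0406. With only 1 TNT array left its difference was -1.22 or -1.30, and it did not pass. Its signal in TNT replicate 2 was 163.8, above every DMF array (102.2, 148.5 and 102.2). Over all 6 arrays its difference was -0.67 and did not pass (limma adjusted p = 0.731). Of 9 genes of root epidermis patterning the annotation named only TRY alone for a probe set. Its signals were 3.62 to 15.5 with TNT and 3.20 to 17.9 with DMF, under the filter. The part of tissue shares in the differences of the 6 genes was not tested.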

How the data were processed

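The deposited values are intensities on a linear scale, 1 per probe set. Per the submitters' processing notes, the authors used MAS5 and GCOS; their versions and settings, and a genome build, are not given in the sources used here. A trimmed mean, without the top and bottom 2% of values, was 100.01 on each array, so arrays had been scaled before deposit, and a change in total RNA cannot be seen. Of 22810 probe sets 64 are controls and were not tested. The annotation pairs 13513 of the other 22746 with 1 gene, 503 with several and leaves 8730 unnamed here. Current symbols came from the TAIR10.1 table by gene identifier (13436 matched).

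Signals were taken to log2 with no further normalization. Probe sets with a mean log2 signal at or above the 40th percentile (13648) were fitted with limma 3.58.1 in R 4.3.3 (lmFit, eBayes with an intensity trend, two-sided, Benjamini-Hochberg adjustment over all 13648, threshold 0.05), over all 6 arrays and without TNT replicate 2. The fit was also run on simulated data with independent noise on each array. That noise held no outlying array and no effect shared by replicate number, so the run does not bear on TNT replicate 2. The genes and the 12 lists were chosen with earlier results of these data known. Named from each list were genes that passed without TNT replicate 2 and the 2 with the largest difference among those that did not, with 1 probe set per gene. For the 6 genes the 2 nearest probe sets by pattern were named. The unnumbered TNT title was taken as replicate 1. Deviations from group means correlated between TNT and DMF at 0.54, 0.47 and 0.43 for replicate numbers 1, 2 and 3. With 3 arrays per group these values are not independent, and unlike numbers were not compared. The part of the narrower spread of both arrays numbered 2 was not tested, so pairing of samples by number is not established. Precision is limited by having 3 arrays per group. Alternatives were quantile normalization, an offset of 16, no filter, a 60th percentile filter, a filter on the linear mean (added after seeing the data), the replicate block, array weights, no intensity trend and arrays left out.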

Additional observations from a re-analysis of the deposited data

How the results depend on the processing

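The log2 differences of the 6 genes stayed negative under every alternative run over 6 arrays. Their median was -0.97, and -1.29 without TNT replicate 2. With 1 array left out it ranged from -1.29 to -0.71. With an offset of 16 the median was -0.68, with EXPA7 at -0.59, EXPA18 at -0.77 and GH9C1 at -0.88. With the 60th percentile filter only HRGP1, GH9C2 and XTH16 remained, with a median of -0.44, because fewer genes were tested. The count of called probe sets over all 6 arrays was 0, with 1195 at an unadjusted p under 0.05. It was 2896 with array weights, which called 6 of the 6 genes, 1374 without both arrays numbered 2, and between 0 and 947 with 1 array left out (3 without DMF replicate 2 and 947 without TNT replicate 2). It stayed at 0 with the replicate block, the normalization, offset and filter alternatives, and no intensity trend. Without TNT replicate 2 the count was 947. It was 3733 with the replicate block, where DMF replicate 2 has no partner and 1 residual degree of freedom is left. It ranged from 179 to 1374 with a further array left out, and was 386 without DMF replicate 3. It was 179 without TNT replicate 1 and 202 without TNT replicate 3, where 1 TNT array is left and its spread is taken from DMF. The causes were not tested. In the comparison without TNT replicate 2, AT4G26010 passed under 11 of 11 alternatives, STOMAGEN under 9 of 11 and COB under 6 of 11. Over all 6 arrays the replicate block changed no call. The arrays hold no detection calls, and EXPA7, EXPA18 and GH9C1 lay nearest the floor.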
